A study of Mus musculus with 2 samples.

Results

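The genes described here are 47 genes of mitosis, the kinetochore and cytokinesis. They were listed by name from their known functions, with earlier results of these data known, and sorted into 11 roles. All 47 were found among the 31253 genes to which the transcript rows could be assigned. The RNA of 2 C57BL/6 mouse samples was sequenced, 1 library per group, and the comparison asks how far transcripts of the division machinery differ between a propagated culture and the kind of tissue it came from. The first library, named mNRPC, came from mouse neural retinal progenitor cells that had been grown for 24 passages. According to the study's methods, these cells were isolated from the neural retina of adult mice and kept in N2/B27 medium with the growth factor bFGF and CHIR99021, which inhibits the kinase GSK-3. The second library came from retina tissue, for which the labels give no age and no treatment. No genetic change is named for either group. The culture was 1 line sampled once, and the tissue holds all retinal cell types together, so fewer cells of a type and less RNA per cell cannot be told apart.

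At mitosis, CDK1 bound to a B-type cyclin starts chromosome condensation and spindle assembly, kinetochores tie the centromeres to spindle microtubules, and the checkpoint holds anaphase back until every chromosome is attached. The anaphase-promoting complex then marks cyclins and securin for destruction, the sister chromatids part, and a contractile ring divides the cell. Most of these transcripts are made in G2 and M phase and are scarce in cells that have left the cycle, as have the neurons that make up most of a mature retina.

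The values were FPKM, that is, fragment numbers corrected for transcript length and for the size of the library, summed over the transcript rows of each gene. Estimated from the FPKM of the lowest rows, the depth was about 6490000 fragments in the mNRPC library and 5040000 in the retina library. The comparison used 13780 genes that reached 1 FPKM in at least 1 library. A log2 ratio is that of FPKM + 1 in mNRPCs to FPKM + 1 in retina, and a ratio of at least 1 in size put a gene in the higher or lower count for mNRPCs, which is a 2-fold difference on that scale. The ± values are standard errors from fragment counting alone. With 1 library per group no spread between replicates was available, no p-value was calculated, and every count is a description of these libraries. The tissue label fitted its markers, since all 10 rod markers, all 7 Müller glia markers and all 10 bipolar, amacrine and ganglion cell markers were at 1 FPKM or more in the retina library. In the mNRPC library, 3 markers of each of these lists reached 1 FPKM, and all 8 progenitor markers did.

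Nearly all mitotic genes were higher in mNRPCs. Of the 47 genes, 44 were counted as higher, 1 (Spc25) as lower, and 2 (Mad2l1 and Pttg1) lay within a log2 ratio of 1. Among all genes compared, 24.5% were higher, 30.0% were lower and 45.6% lay within. The median log2 ratio of the 47 genes was 4.21, with a range from -1.20 to 7.37, against -0.12 for all genes compared. The median level was 35.6 FPKM in mNRPCs and 0.634 FPKM in retina. In retina, 27 of the 47 were under 1 FPKM and entered the comparison through the mNRPC library alone, so their direction was fixed by the filter. Of the 20 at 1 FPKM or more in retina, 17 were higher, 1 was lower and 2 lay within, with a median log2 ratio of 2.46. The shares and median of all genes given above include genes that passed through the mNRPC library alone, so they do not match these 20. Those of all genes at 1 FPKM or more in retina were not calculated. At the estimated depth, 35 of the 47 stood above 3 fragments in retina and 12 did not. For genes that low, the size of the ratio depends on the value added to FPKM. With 0.1 in place of 1, the log2 ratio of Ttk was 5.12 instead of 3.05 and that of Espl1 was 5.04 instead of 2.39. In mNRPCs all 47 stood above 3 fragments, and 18 were at 50 FPKM or more.

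**Figure D1:**
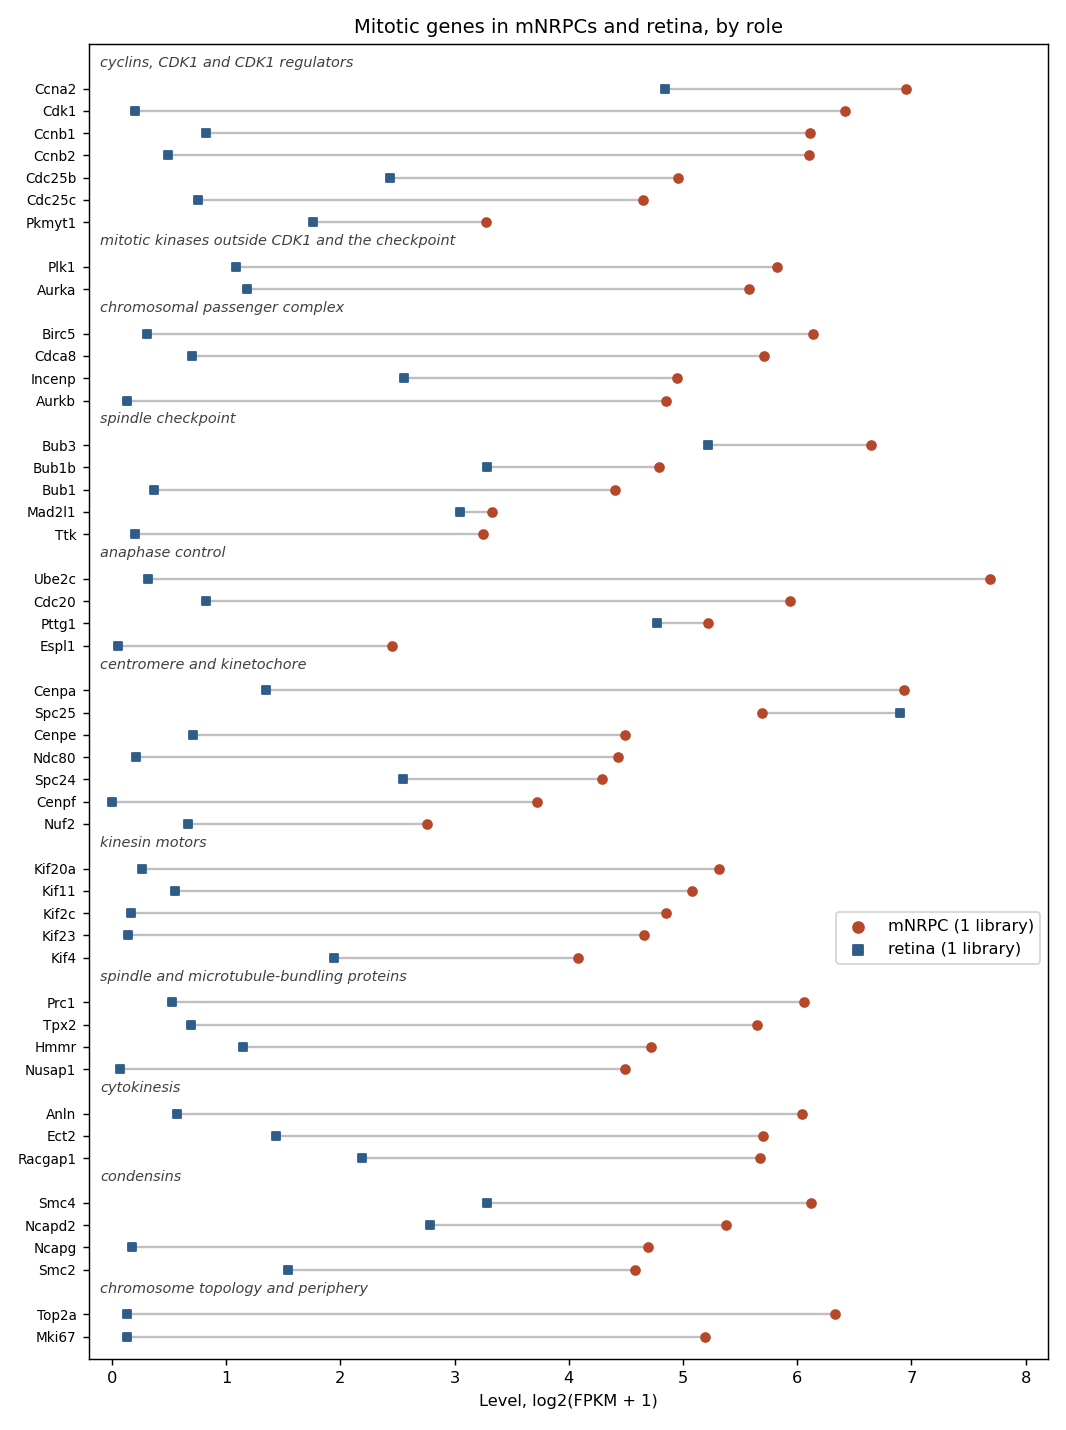
Level of each of the 47 mitotic genes in the mNRPC library (red circles) and the retina library (blue squares), as log2(FPKM + 1), grouped by role and sorted within a role by the mNRPC level. Spc25 is the single gene with the retina point to the right, and Ccna2, Bub3, Pttg1 and Spc25 are the 4 genes above 20 FPKM in retina.

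The mitotic genes made up 2148 FPKM, or 0.348% of the total, in mNRPCs and 279.6 FPKM, or 0.0647%, in retina. The retina sum was concentrated in a few genes. Spc25, Bub3, Ccna2 and Pttg1 held 74.6% of it, and the same 4 genes held 14.4% of the mNRPC sum. Without them, the other 43 genes summed to 1839 FPKM in mNRPCs and 71.0 FPKM in retina.

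Short promoter elements that have been studied in genes of G2 and M phase were searched for in the mitotic genes. One is the cell cycle genes homology region, CHR, with the letters TTTGAA or the variant TTCGAA, and the other is the CCAAT box, which often lies upstream of it. The 4 members with the highest log2 ratios and a CHR match before the start are shown because they stand near one end of the set, so the presence of the element in them was a condition of their choice. Birc5, with the fourth highest ratio (5.83), had neither the CHR letters nor the box and was passed over. Spc25, chosen after its value was seen, is shown because it stands at the other end. Each line gives the RefSeq promoter of GRCm38.p6 from 250 to 10 bases before the transcription start, 5′ to 3′ on the strand of the gene. Capitals mark TTTGAA or its variant TTCGAA and the box CCAAT in either orientation, so that TTCAAA stands for the hexamer, and ATTGG for the box, on the other strand.
Ube2c, chr2:164769679-164769919, plus strand: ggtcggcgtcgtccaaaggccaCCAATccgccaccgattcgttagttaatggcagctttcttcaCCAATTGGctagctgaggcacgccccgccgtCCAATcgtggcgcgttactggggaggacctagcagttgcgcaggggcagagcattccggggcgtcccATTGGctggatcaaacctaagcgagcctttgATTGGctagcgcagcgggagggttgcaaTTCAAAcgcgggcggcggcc
Cdk1, chr10:69352922-69353162, minus strand: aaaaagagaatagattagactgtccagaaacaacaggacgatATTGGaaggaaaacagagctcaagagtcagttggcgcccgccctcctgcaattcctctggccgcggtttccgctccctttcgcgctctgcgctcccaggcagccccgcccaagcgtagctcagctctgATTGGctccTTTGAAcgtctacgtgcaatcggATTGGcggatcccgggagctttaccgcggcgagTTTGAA
Top2a, chr11:99024199-99024439, minus strand: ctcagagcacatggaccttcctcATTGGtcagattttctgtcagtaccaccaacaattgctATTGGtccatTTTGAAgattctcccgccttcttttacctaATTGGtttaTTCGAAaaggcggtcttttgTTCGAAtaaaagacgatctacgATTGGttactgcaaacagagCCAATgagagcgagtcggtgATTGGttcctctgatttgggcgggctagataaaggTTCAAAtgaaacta
Ccnb2, chr9:70421564-70421804, minus strand: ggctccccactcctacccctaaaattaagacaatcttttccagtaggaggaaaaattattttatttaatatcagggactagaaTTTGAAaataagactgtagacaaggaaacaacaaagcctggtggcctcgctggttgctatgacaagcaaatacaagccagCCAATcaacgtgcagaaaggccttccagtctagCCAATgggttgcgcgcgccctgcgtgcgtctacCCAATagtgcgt
Spc25, chr2:69206223-69206463, minus strand: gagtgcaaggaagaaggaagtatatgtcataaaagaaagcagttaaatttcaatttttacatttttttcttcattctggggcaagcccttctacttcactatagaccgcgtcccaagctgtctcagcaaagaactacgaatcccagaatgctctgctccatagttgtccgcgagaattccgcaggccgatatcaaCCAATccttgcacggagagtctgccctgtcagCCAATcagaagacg

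In Ube2c the CHR match stood in reverse at position -29 relative to the start, in Cdk1 2 matches stood at -71 and -15, and in Top2a TTTGAA stood at -179 and, in reverse, at -23, with TTCGAA at -140 and -120. Ccnb2 had TTTGAA at -167 and again at 5, after the start. Spc25 had CCAAT at -55 and -23, and its TTTGAA at 25, also after the start. Spc25, the gene that was lower in mNRPCs, thus held both kinds of letters. In GENCODE M21 the last 22 bases of the Ube2c stretch and the last 17 of the Cdk1 stretch lie in an annotated exon, and the matches at -29 and -15 lie within them. A match is a string of letters and does not show that a factor is bound there.

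Over the 38 mitotic genes with a promoter in the RefSeq table, TTTGAA was found on either strand in 29 (76.3%), within a window from 250 bases before to 50 after the start. Among all 27025 genes of the table it was found in 20.2%, and among the compared genes of the table in 14.1%. CCAAT was found in 30 of the 38 (78.9%), against 41.1% of all genes and 43.5% of the compared genes. Both were present in 26 of the 38 (68.4%), against 7.97% of all genes. In the further mitotic genes described below, TTTGAA was found in 31 of 66 (47%), CCAAT in 42 (63.6%) and both in 22 (33.3%), so these shares lay between those of the 47 genes and of all genes. In replication genes TTTGAA was found in 5 of 32 (15.6%) and CCAAT in 21 (65.6%). TTCGAA, which reads the same on both strands, was found in 4 mitotic genes (10.5%, against 1.8% of all genes and 9.09% of the further mitotic genes). The E2F-type letters TTTGGCG and the similar TTTCCCG were found in 1 and 4 of the 38 (2.63% and 10.5%), against 1.77% and 3.92% of all genes, 2.85% and 6.52% of the compared genes, and 34.4% and 28.1% of the replication genes. These strings all differ, although neighbouring matches may share bases. With the window limited to 150 bases before the start, TTTGAA was found in 14 of the 38 (36.8%, against 10.5% of all genes), because many of its matches lie after the start.

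The matches were not spread evenly. Of 40 TTTGAA matches in the mitotic genes, 29 began within 50 bases of the start, in 26 genes, and of 73 CCAAT matches 47 began in the 100 bases before it. The 25 bases after the start held a TTTGAA in 29.3% of the 41 mitotic promoters and in 1.31% of all promoters. The 29 mitotic genes with TTTGAA had a median log2 ratio of 4.51 and ran from -1.20 to 7.37, and the 9 without it (Birc5, Bub1, Ccnb1, Cdc25b, Cenpe, Mad2l1, Nuf2, Nusap1 and Pttg1) had a median of 3.79 and ran from 0.28 to 5.83. The ranges overlapped over most of their length. Of the 9 without TTTGAA, Bub1 and Cdc25b held the variant TTCGAA, at 15 and 8. The median retina level was 0.4885 FPKM with TTTGAA and 0.6338 FPKM without it. Under 1 FPKM the filter fixed the direction, so these 2 median ratios are not compared. For the remaining 9 (Aurkb, Ccna2, Cdc25c, Incenp, Kif20a, Pkmyt1, Smc4, Spc24 and Tpx2) no promoter was read.

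**Figure D2:**
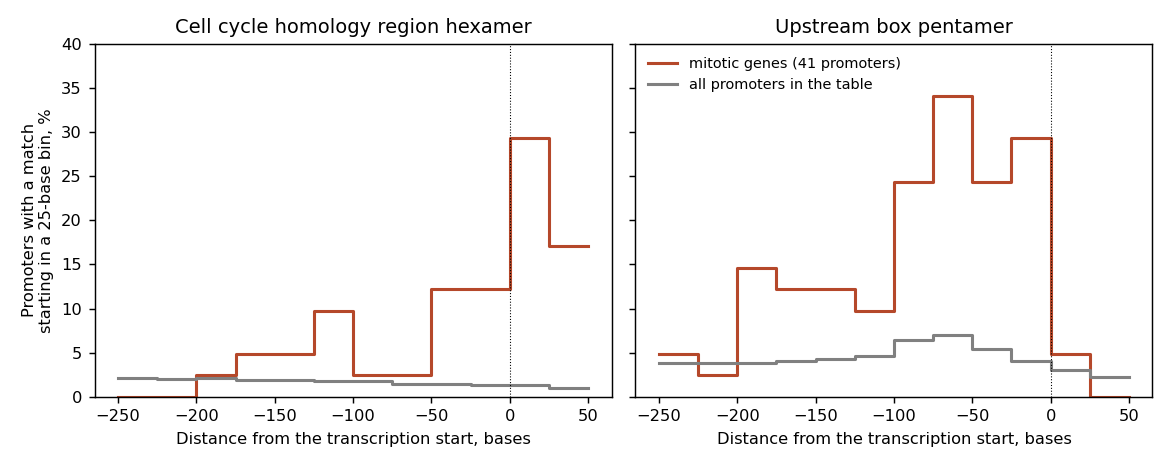
Share of promoters in which TTTGAA (left) or CCAAT (right) begins, on either strand, in each 25-base bin of distance from the transcription start, for the 41 promoters of mitotic genes (red) and all 32851 promoters of the table (grey). The mitotic promoters reach 29.3% just after the start for TTTGAA and 34.1% between 75 and 50 bases before it for CCAAT, against 1.31% and 6.99% of all promoters.

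All 7 cyclin and CDK1 genes were higher in mNRPCs, with a median log2 ratio of 3.90. Cdk1, the kinase that drives entry into mitosis, was at 84.4 FPKM in mNRPCs and 0.15 FPKM in retina (95% counting interval 0.0341 to 0.418 FPKM), a log2 ratio of 6.21 ± 0.11. Its B-type cyclin partners had the same pattern. Ccnb1 was at 68.1 and 0.773 FPKM (5.28 ± 0.21) and Ccnb2 at 67.9 and 0.405 FPKM. Ccna2, the cyclin that acts from S phase into early mitosis, differed from them by its retina level. It was at 123.1 FPKM in mNRPCs and 27.7 FPKM in retina (25.1 to 30.5 FPKM), a log2 ratio of 2.11 ± 0.07. The level of Ccna2 was 1.81 times that of Ccnb1 in mNRPCs and 35.9 times that of Ccnb1 in retina. Exosc9, an exosome gene on the opposite strand, overlaps 12.5% of the exon bases of Ccna2, and whether the libraries kept the strand is not stated, so reads in that stretch cannot be told apart. Exosc9 was at 44.5 FPKM in mNRPCs and 21.0 FPKM in retina.

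The phosphatase genes that switch CDK1 on were also higher. Cdc25c was at 24.2 and 0.684 FPKM in mNRPCs and retina (3.90 ± 0.24), and Cdc25b, the form that acts first at the centrosome, at 30.1 and 4.40 FPKM (2.53 ± 0.15). Pkmyt1, the kinase that holds CDK1 off, had the lowest ratio of this role, 1.52 ± 0.24, from 8.71 FPKM in mNRPCs and 2.39 FPKM in retina. Counted on curated transcript rows alone, the Pkmyt1 ratio was 0.91 and no longer passed 1. The gene overlaps Paqr4, which was at 2.78 FPKM in mNRPCs and 56.96 FPKM in retina, over 8.76% of its exon bases.

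Of the kinases outside CDK1 and the checkpoint, Plk1, which acts from centrosome maturation to cytokinesis, was at 55.8 FPKM in mNRPCs and 1.12 FPKM in retina (4.74 ± 0.22). Aurka, the spindle pole kinase, was at 46.9 and 1.27 FPKM (4.40 ± 0.24). Both were present in retina at about 12 estimated fragments, so their low retina levels are known to within about a factor of 2.

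The 4 genes of the chromosomal passenger complex, which corrects wrong attachments at the centromere and later acts at the midzone, had a median log2 ratio of 4.86. Birc5 (survivin) was at 69.4 FPKM in mNRPCs and 0.235 FPKM in retina (0.00834 to 1.21 FPKM), and Cdca8 (borealin) at 51.2 and 0.624 FPKM. The kinase of the complex, Aurkb, was at 27.8 and 0.0968 FPKM, with less than 1 fragment estimated in retina. Incenp, the scaffold, was the subunit with a retina level above 1 FPKM, at 29.8 FPKM in mNRPCs and 4.90 FPKM in retina (2.38 ± 0.15). In mNRPCs the level of Incenp was 1.07 times that of Aurkb. Aurkb was under 3 fragments in retina, so no ratio to it is given there.

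The spindle checkpoint genes had a median of 1.505, with 4 of 5 counted as higher. Over the settings tried this median lay between 0.93, with rod and cone genes left out, and 3.05, with accessions matched by version, when Bub3 and Mad2l1 had no match and 3 genes were left. Bub1, a kinase at the kinetochore, was at 20.2 FPKM in mNRPCs and 0.293 FPKM in retina (4.03 ± 0.16), and Ttk (MPS1), the kinase that starts checkpoint signalling, at 8.48 and 0.147 FPKM (3.05 ± 0.16). The other 3 kept a clear retina level. Bub1b (BUBR1), a part of the inhibitory mitotic checkpoint complex, was at 26.7 and 8.74 FPKM (1.505 ± 0.12). Bub3, the propeller protein that brings BUB1 and BUBR1 to kinetochores, was at 99.0 and 36.2 FPKM (1.43 ± 0.08). Mad2l1 (MAD2), which binds and holds CDC20, was at 9.04 FPKM in mNRPCs and 7.26 FPKM in retina (0.28 ± 0.21), and its counting intervals of 7.37 to 10.99 FPKM and 5.58 to 9.29 FPKM overlapped. With each library rescaled to the same FPKM sum, Bub3 came to 0.93 and Mad2l1 to -0.18, so the call of Bub3 and the sign of Mad2l1 rest on the scaling. With rod and cone genes left out before rescaling, Bub1b came to 0.93, Bub3 to 0.79 and Mad2l1 to -0.32.

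Anaphase control held both a very high ratio and one near 0. Ube2c, the ubiquitin-conjugating enzyme of the anaphase-promoting complex, was at 205.4 FPKM in mNRPCs, rank 377 among the 11076 genes of at least 1 FPKM there, and at 0.246 FPKM in retina (0.0105 to 1.21 FPKM), a log2 ratio of 7.37 ± 0.26. This was the highest of the 47 genes, but with low values set to 3 fragments and no value added, Top2a (9.45), Cdk1 (9.14) and Mki67 (8.49) stood above Ube2c (8.38). Cdc20, which activates that complex at anaphase, was at 60.3 and 0.774 FPKM (5.11 ± 0.24). Espl1 (separase), the protease that opens cohesin, was the lowest of the 47 genes in mNRPCs, at 4.46 FPKM, and stood at 0.0385 FPKM in retina. Its log2 ratio was 2.39, and 0.96 on curated rows alone. Pttg1 (securin), the inhibitor of separase, was at 36.2 FPKM in mNRPCs and 26.4 FPKM in retina (0.44 ± 0.15). Its counting intervals, 31.4 to 41.6 FPKM and 22.3 to 31.1 FPKM, did not overlap, but under rescaling to the same sum its ratio was -0.06, and -0.19 with rod and cone genes left out as well.

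Of the 7 centromere and kinetochore genes, 6 were higher in mNRPCs and 1 was lower, with a median of 3.72, which ran from 2.77 on curated rows to 5.08 with low values set to 3 fragments and no value added. Cenpa, the histone variant that marks centromeres, was at 121.7 and 1.54 FPKM in mNRPCs and retina (5.59 ± 0.26). Cenpe, a kinesin that moves chromosomes to the spindle equator, was at 21.5 and 0.634 FPKM (3.79 ± 0.12). Cenpf, a large outer kinetochore protein, had a level of 12.2 FPKM in mNRPCs but was listed at 0 in retina. These 3 genes thus stood above 12 FPKM in mNRPCs and under 2 FPKM in retina.

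The 4 subunits of the NDC80 complex, the rod that grips microtubule ends, parted from each other in retina. Ndc80 was at 20.5 FPKM in mNRPCs and 0.161 FPKM in retina (4.21 ± 0.17), and its partner Nuf2 at 5.79 and 0.589 FPKM (2.09 ± 0.24). Spc24 and Spc25 form the inner end of the rod. Spc24 was at 18.5 and 4.86 FPKM (1.74 ± 0.23). Spc25 was at 50.8 FPKM in mNRPCs and 118.3 FPKM in retina (110.3 to 126.6 FPKM), a log2 ratio of -1.20 ± 0.08 over about 451 and 829 estimated fragments. In retina Spc25 ranked 494 among 12639 genes of at least 1 FPKM, and in mNRPCs it ranked 1721.

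Spc25 was the highest of the 47 genes in retina and had a level 24.3 times that of Spc24 there, against 2.74 times in mNRPCs. Ndc80 was under the 3-fragment limit in retina, so no ratio to it is given. No other gene shares exon bases with Spc25 in GENCODE M21. Its retina level was divided over several rows, and the highest row, the same in both libraries, held 87.7% of the mNRPC level and 70.6% of the retina level. On that row alone the log2 ratio was -0.89, still lower in mNRPCs but short of the threshold. Under the other settings tried it lay between -1.86 and -1.13, except that no row of Spc25 was matched when accessions were matched with their version.

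**Figure D3:**
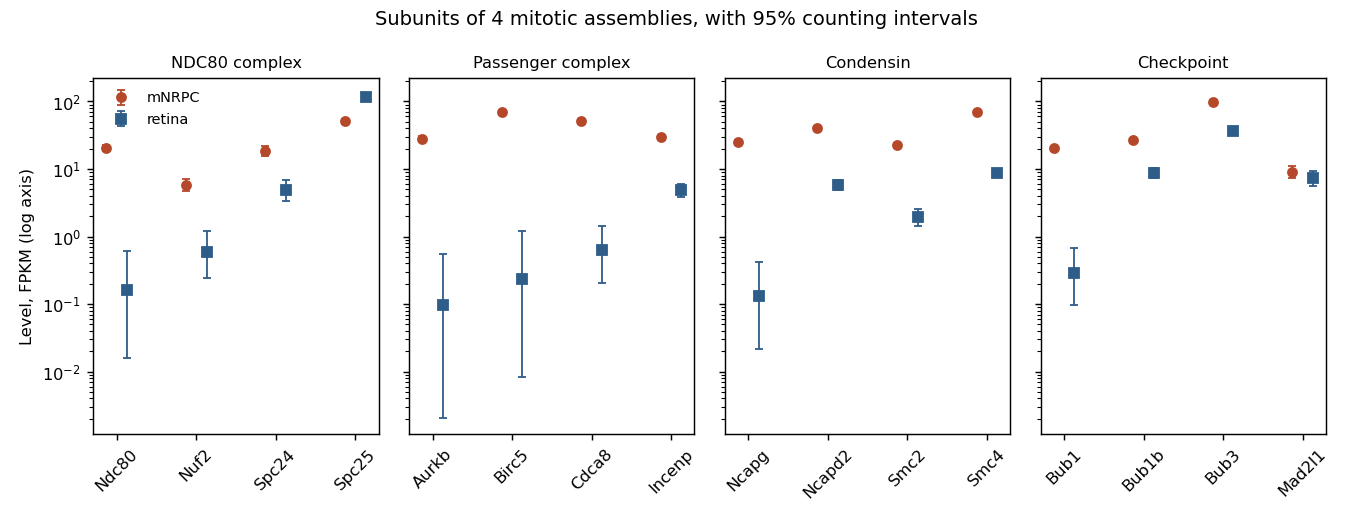
FPKM on a log axis of the subunits of the NDC80 complex, the chromosomal passenger complex, condensin and 4 checkpoint proteins in the mNRPC library (red circles) and the retina library (blue squares), with bars for 95% counting intervals, which cover counting error alone. In retina the NDC80 subunits run from 0.161 FPKM (Ndc80) to 118.3 FPKM (Spc25), and in mNRPCs from 5.79 FPKM (Nuf2) to 50.8 FPKM (Spc25).

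Other assemblies were also less even in retina than in mNRPCs. The highest subunit of the passenger complex had 2.50 times the level of the lowest in mNRPCs. In retina its highest level was 4.90 FPKM (Incenp), and Aurkb was under its 3-fragment limit of 0.306 FPKM. For the condensin subunits the ratio in mNRPCs was 3.005, and for the 2 proteins of centralspindlin it was 2.06. In retina Smc4 was at 8.72 FPKM, with Ncapg under its limit of 0.161 FPKM. Racgap1 was at 3.56 FPKM there, with Kif23 under its limit of 0.175 FPKM. No retina ratio to Aurkb, Ncapg or Kif23 is given. For BUB1, BUBR1, BUB3 and MAD2 the ratio was 10.9 in mNRPCs and 123.5 in retina. The lowest subunit in retina had 5.05 or fewer estimated fragments in each of these 4 assemblies and in the NDC80 complex. The spread within each assembly in retina is thus known only roughly.

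All 5 kinesin motors were higher in mNRPCs (median 4.52, with a range from 4.39 to 6.94 over the settings tried). Of these 5, only Kif4 reached 1 FPKM in retina. Kif11 (EG5), which pushes the spindle poles apart, was at 32.8 and 0.471 FPKM in mNRPCs and retina (4.52 ± 0.14). Kif2c (MCAK), a microtubule depolymerase, was at 27.9 and 0.124 FPKM. The motors of cytokinesis, Kif20a and Kif23, had levels of 38.8 and 24.2 FPKM in mNRPCs against 0.197 and 0.103 FPKM in retina. Kif20a overlaps Cdc23 on the opposite strand over 29.3% of its exon bases, and Cdc23 was at 20.8 and 22.3 FPKM. Kif4, the chromosome-borne motor that works with condensin and PRC1, had the lowest ratio of the role, 2.14 ± 0.14, from 16.0 and 2.86 FPKM. It overlaps Pdzd11 over 15.1% of its exon bases, and Pdzd11 was at 23.2 and 25.1 FPKM.

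Spindle and microtubule-bundling genes were all higher as well (4 of 4, median 4.70). Prc1, which crosslinks midzone microtubules, was at 65.5 and 0.437 FPKM (5.53 ± 0.18). Tpx2, the spindle assembly factor that activates Aurora A, was at 49.3 and 0.613 FPKM (4.96 ± 0.16), and Hmmr, a spindle pole protein, at 25.3 and 1.22 FPKM (3.57 ± 0.17). Nusap1 was at 21.6 FPKM in mNRPCs and 0.0479 FPKM in retina.

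The 3 cytokinesis genes had a median of 4.26. Anln (anillin), the scaffold of the contractile ring, was at 65.0 and 0.489 FPKM (5.47 ± 0.14). Ect2, the exchange factor that activates RhoA at the equator, was at 51.1 and 1.71 FPKM (4.26 ± 0.16). Racgap1, the partner of KIF23 in centralspindlin, was at 50.02 and 3.56 FPKM (3.48 ± 0.16). Anln, Ect2 and Racgap1 thus lay between 50.02 and 65.0 FPKM in mNRPCs and between 0.489 and 3.56 FPKM in retina, where they were further apart in proportion.

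Condensins, which compact the chromosomes, had a median of 2.94, with 4 of 4 higher. The ATPase subunits Smc4 and Smc2 had levels of 68.8 and 22.9 FPKM in mNRPCs against 8.72 and 1.92 FPKM in retina (2.84 ± 0.10 and 3.03 ± 0.14). Ncapd2, a subunit of condensin I, was at 40.6 and 5.89 FPKM (2.60 ± 0.11). Ncapg, another, was at 24.8 and 0.132 FPKM (4.51 ± 0.12), with about 2.45 fragments in retina. The 3 condensin genes other than Ncapg thus kept between 1.92 and 8.72 FPKM in retina.

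Top2a, the topoisomerase that untangles sister chromatids, was at 79.7 FPKM in mNRPCs and 0.0933 FPKM in retina (0.0151 to 0.302 FPKM), a log2 ratio of 6.21 ± 0.08. At about 2.45 fragments in retina the size of this ratio is uncertain, and it was 5.10 on curated rows and 9.45 with low values set to 3 fragments and no value added. Mki67, which coats mitotic chromosomes and is the usual marker of cycling cells, was at 35.6 and 0.0986 FPKM (0.0320 to 0.230 FPKM), a ratio of 5.06 ± 0.06. On curated rows alone Mki67 came to 2.299, since its curated row held 11.3% of its mNRPC level.

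A further 77 mitotic genes were set beside these, of which 76 passed the filter. In this list 65 were higher, 1 was lower and 10 lay within, with a median log2 ratio of 3.005, and their FPKM summed to 2135 in mNRPCs and 551.6 in retina. In retina 32 of the 77 were at 1 FPKM or more (15 of the kinetochore genes, 8 of the kinases and regulators, 6 of the spindle genes and 3 of the condensins), and the direction of the others was fixed by the filter, so the counts describe the list and support nothing further. Of the other centromere and kinetochore genes, 22 of 29 were higher and 7 lay within, with a median of 2.39. Zwint, which links KNL1 to the RZZ complex, was at 158.8 FPKM in mNRPCs and 296.7 FPKM in retina (-0.90 ± 0.04), and Zw10, of the RZZ complex itself, at 11.9 and 18.3 FPKM (-0.57 ± 0.12). Knstrn (kinastrin), at 42.1 and 0.922 FPKM (4.49 ± 0.15), and Ska1, at 27.6 FPKM and listed at 0 in retina, stood at the other end.

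Of the other mitotic kinases, regulators and checkpoint genes, 20 of 21 were higher (median 3.54). Cks1b, a CDK-binding subunit, had the highest ratio, 6.31 ± 0.32, from 264.8 and 2.36 FPKM, and Cdca3, which marks WEE1 for destruction, followed at 5.35 ± 0.23. Wee1, the nuclear kinase that holds CDK1 off, was at 17.9 and 4.40 FPKM (1.81 ± 0.15), and Mad1l1, the MAD2 anchor, at 7.63 and 10.3 FPKM (-0.39 ± 0.16). Of the other spindle, motor and cytokinesis genes, 20 of 22 were higher (median 3.70). Cep55, which recruits the abscission machinery, was at 33.8 and 0.0790 FPKM, and Depdc1a at 30.1 FPKM and listed at 0 in retina. The 2 that lay within were Ckap5, a microtubule polymerase, at 23.6 and 25.2 FPKM (-0.09 ± 0.06), and Cit (citron kinase), at 4.16 and 2.38 FPKM (0.61 ± 0.12).

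The other 4 condensin genes went both ways. Ncaph and Ncapg2 had levels of 26.2 and 12.2 FPKM in mNRPCs against 0.270 and 1.36 FPKM in retina, and Ncaph2 at 68.8 and 33.0 FPKM (1.04 ± 0.07). Ncaph2 lay close to the threshold, and the count of higher genes in this list, 3, was 2 under each of the other scalings. Ncapd3, a subunit of condensin II, was at 4.91 FPKM in mNRPCs and 20.2 FPKM in retina (-1.84 ± 0.11) and was the 1 lower gene of the 76.

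**Figure D4:**
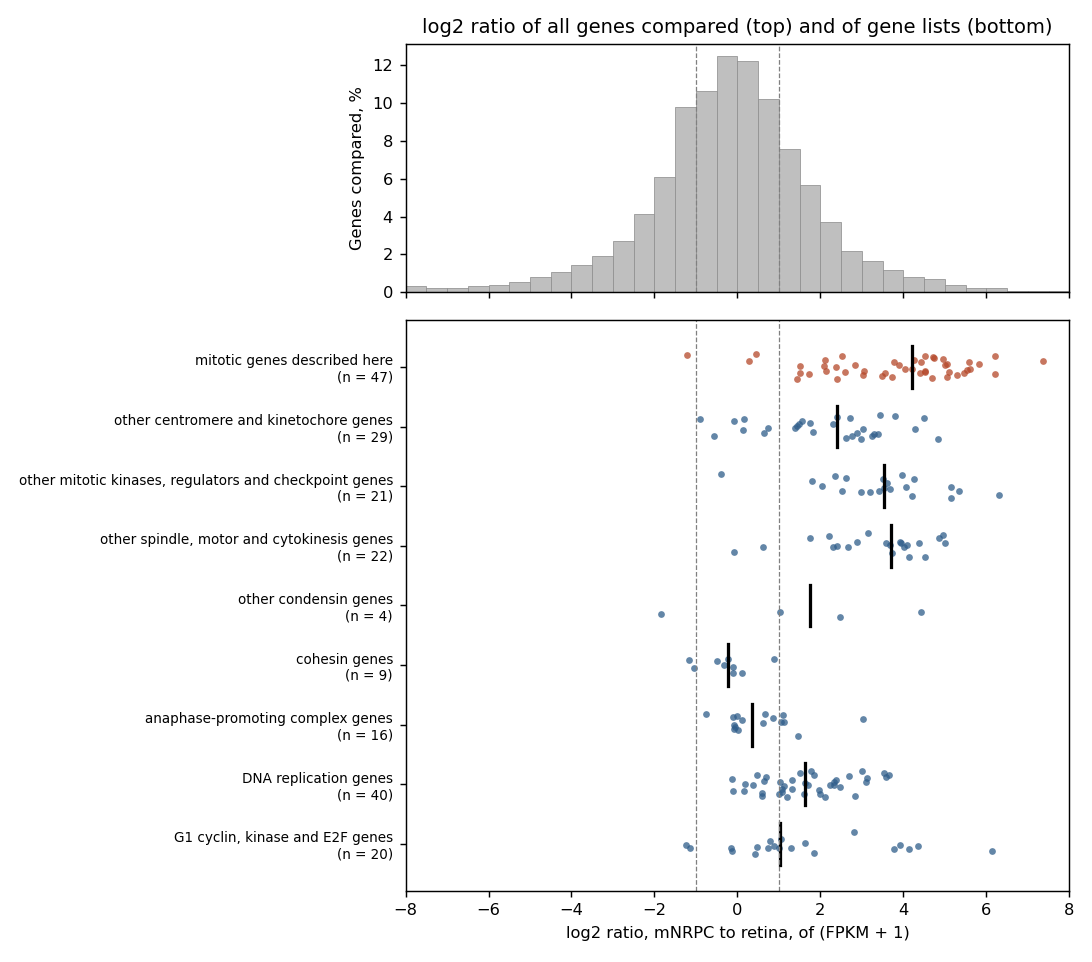
Top, distribution of the log2 ratio of (FPKM + 1), mNRPC to retina, over all 13780 genes compared, with the end bars also holding the values beyond them. Bottom, the ratio of each mitotic gene described here (red) and of each gene of the other lists (blue), with a black bar at the list median and dashed lines at -1 and 1. The median of the 47 mitotic genes is 4.21, that of the cohesin genes is -0.24, and that of the anaphase-promoting complex genes, 0.36, turns to -0.14 when each library is rescaled to the same sum. In retina 27 of the 47 mitotic genes were under 1 FPKM, but all 9 cohesin and 16 complex genes compared were at 1 FPKM or more. These medians are therefore not compared.

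Not every list of cell division was higher. Cohesin holds sister chromatids together and also shapes chromosomes in interphase. It had 0 of 9 genes higher, 2 lower and 7 within, beside 24.5% higher and 30.0% lower among all genes compared. The cohesin median was -0.24, which is 0.12 below that of all genes. Rad21, the cohesin subunit that separase cuts, was at 94.5 and 50.7 FPKM (0.89 ± 0.05), and Smc1a at 32.6 and 29.9 FPKM (0.12 ± 0.07). The cohesin loaders Nipbl and Mau2 were at 8.98 and 1.93 FPKM in mNRPCs and 21.3 and 5.04 FPKM in retina. The anaphase-promoting complex had 5 of 16 genes higher (31.25%, near the 24.5% of all genes compared), 0 lower and 11 within. Its median of 0.36 turned to -0.14 under rescaling to the same sum, when 1 gene was higher. Ube2s, which extends ubiquitin chains for the complex as UBE2C starts them, was at 422.6 and 51.3 FPKM (3.02 ± 0.08), and the small subunit Cdc26 at 31.7 and 10.9 FPKM (1.46 ± 0.22). Cdc23 was at 20.8 and 22.3 FPKM (-0.09 ± 0.09) and Anapc10 at 3.69 and 6.89 FPKM (-0.75 ± 0.19). Cdc20 and Ube2c, the 2 partners of this complex among the 47 genes, were under 1 FPKM in retina, so the filter fixed their direction. All 16 genes of the complex list were at 1 FPKM or more there, so the ratios of the 2 partners are not compared with theirs.

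Of the genes of DNA replication, 30 of 40 were higher and 10 lay within (median 1.62). In retina 34 of the 40 were at 1 FPKM or more, a larger share than of the 47 mitotic genes, so the medians of these lists are not compared. Mcm6 and Mcm3, of the replicative helicase, were at 43.9 and 29.0 FPKM in mNRPCs and 2.58 and 1.52 FPKM in retina (3.65 ± 0.18 and 3.58 ± 0.19), and Orc2 and Orc4, of the origin recognition complex, had ratios of -0.12 ± 0.12 and -0.10 ± 0.08. Of the G1 cyclin, kinase and E2F genes, 11 of 20 were higher, 2 were lower and 7 lay within (median 1.03), with 16 at 1 FPKM or more in retina. Ccnd1 (cyclin D1) was at 371.4 and 4.26 FPKM (6.14 ± 0.13) and E2f1 at 44.7 and 1.25 FPKM (4.34 ± 0.20). The pocket protein genes Rb1 and Rbl2, which restrain E2F, were the 2 that were lower, at 6.37 and 7.82 FPKM in mNRPCs and 16.5 and 18.6 FPKM in retina. Rbl1, also a pocket protein gene, was higher, at 15.2 FPKM in mNRPCs and 3.54 FPKM in retina (1.835 ± 0.14).

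Cell type markers also differed between the libraries, most of them in the opposite direction to the mitotic genes. The 10 rod markers summed to 8.43 FPKM in mNRPCs and 21550 FPKM in retina, the 7 Müller glia markers to 54.1 and 1974 FPKM, and the 10 bipolar, amacrine and ganglion cell markers to 11.7 and 581.8 FPKM. The 8 microglia and macrophage markers summed to 1.23 and 12.02 FPKM, with 6 (Aif1, Cx3cr1, P2ry12, C1qa, C1qb and Ptprc) listed at 0 in mNRPCs, and the 8 endothelial and pericyte markers to 4.62 and 47.9 FPKM, with 4 listed at 0 in mNRPCs. Pdgfrb, a pericyte and mesenchymal marker, made up most of the latter mNRPC sum and was higher there, at 4.49 against 1.24 FPKM. The 8 progenitor markers summed to 3600 FPKM in mNRPCs and 276.3 FPKM in retina, with 6 higher, and the intermediate filament gene Vim made up most of the mNRPC sum, at 3138 against 101.2 FPKM. Sox2 was at 230.6 and 18.5 FPKM and Pax6, which adult amacrine and ganglion cells also express, at 122.6 and 100.7 FPKM. The part of cell composition in the mitotic differences was not tested.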

How the data were processed

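FPKM values of 2 libraries, 1 of mNRPCs and 1 of retina, were used, grouped by their labels. The authors' methods name a quality check of the reads, mapping by Bowtie 2 and FPKM from eXpress on a BGISEQ-500, whereas the submitters' processing notes list TopHat2 2.0.10 and GRCm38.p3, and the series text names a HiSeq sequencer. The deposited table gave an FPKM value for each of 106754 RefSeq transcript rows. Which of these made the values could not be settled. Where ambiguous reads are divided among transcripts by estimation, as eXpress does, single rows and genes with near-identical copies are less certain than gene sums, and a value of 0 can be a failed estimate. All per-sample columns were used.

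Accessions without version were matched to the RefSeq table of GRCm38.p6, then to GENCODE M21. In all, 74283 rows had a symbol (69.6%), with 93.2% of the mNRPC FPKM and 89.9% of the retina FPKM. Rows were summed per gene, and 1 was added to FPKM before log2. Estimates below 1e-06 were read as 0. Depth was taken as the mode of FPKM times length over low rows of single-row genes of at least 1500 bases (4023 and 4530 rows). This step was tested on simulated whole fragment counts drawn from the mNRPC levels, which leaves out reads divided among transcripts. The estimated depth was 6340000 and 4850000 with 500 bases, and 6460000 and 5320000 with 2500 bases. Counting intervals (95%, gamma) and the 3-fragment limit rest on this estimate and cover counting error only. No test between groups was possible with 1 library each.

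The 47 genes, the comparison lists and the motifs were chosen with earlier results of these data known. All 47 genes are named, and of each other list of cell division genes the 2 highest and 2 lowest ratios, with Rbl1 added after its value was seen. Cell type markers are given as sums, with a few genes named after their values were seen. Promoters came from RefSeq (GRCm38.p6). Python 3.11.15, NumPy 2.4.6, pandas 2.3.3, SciPy 1.17.1 and Matplotlib 3.10.9 were used. Alternatives were other pseudocounts, filters, scalings, thresholds, row choices and a shorter promoter window.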

Additional observations from a re-analysis of the deposited data

How the results depend on the processing

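No paired analysis was possible because a single library stood for each group, and no replicate could be left out. Over the settings tried, 34 to 44 mitotic genes were higher, 34 being of the 35 that passed the filter when accessions were matched with their version, and their median log2 ratio lay between 3.86 and 5.64. Of 506 values of single mitotic genes under 11 settings, 154 moved beyond counting error and 0 reversed among those past the threshold. The 2 filter settings cannot change a single gene's ratio.

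With a pseudocount of 0.1 FPKM the median was 5.52 for the 47 genes, 5.31 for the kinases, 6.65 for the passenger complex, 6.90 for kinesins, 6.52 for spindle genes, 8.09 for the chromosome genes, and 3.44, 5.07 and 5.13 for the other kinetochore, kinase and spindle lists. With low values set to 3 fragments and no pseudocount these were, in the same order, 5.64, 5.42, 6.43, 6.94, 6.60, 8.97, 3.16, 5.50 and 5.34. On curated rows alone the kinase median was 4.745 and the chromosome median 3.70. On the highest row per gene they were 4.78 and 4.48. With versioned accessions they were 4.746 (Aurka alone, as Plk1 had no match) and 3.70. In that setting 14 of 19 other kinetochore genes and 1 of 2 other condensin genes were higher. The last 2 settings left 0 mitotic genes lower (Spc25 was at -0.89 on its highest row and had no versioned match), as did a log2 threshold of 2.

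Rescaling each library to the same sum moved the median of all genes from -0.12 to -0.685, with 18.4% higher and 42.4% lower (6349 genes lower). Without rod and cone genes it was -0.814, with 17.0% higher and 45.3% lower (6814 genes lower), and the kinase and condensin medians were 4.38 and 2.485. The median of the anaphase-promoting complex was then -0.14 and -0.28, with 1 gene higher in each, and 2 and 3 were higher under upper quartile and trimmed mean scaling. At a log2 threshold of 2, 1547 genes were higher and 1942 lower, with 40 mitotic genes, 1 of the anaphase-promoting complex, 14 replication genes and 6 G1 genes higher. With 150 bases before the start, 14 mitotic genes had TTTGAA. Depth limits the 12 genes at or under 3 fragments in retina, for which the size of the difference cannot be read and the filter fixed the direction.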

Other observations

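The transcript rows behind the mitotic genes differed between the libraries for some genes. Of 23 mitotic genes with several rows and more than 3 estimated fragments in retina, 15 had the same highest row in both libraries and 8 (Aurka, Bub1, Cdc25c, Ect2, Incenp, Pkmyt1, Racgap1 and Smc2) had different ones. The highest mNRPC row of Aurka held 87.9% of its mNRPC level and 36.1% of its retina level. A different row held 39.8% in retina, but these 2 rows had only 4.3 and 4.8 estimated fragments there. For Bub1 the highest mNRPC row held 70.6%. Its whole retina level, only about 5.05 estimated fragments, lay on a predicted row that held 12.3% in mNRPCs. For Bub3 the same row held 93.0% in mNRPCs and 94.3% in retina, and for Smc4 94.2% and 92.9%. Of Pttg1, the second curated row was at 1.58 FPKM in mNRPCs and 9.92 FPKM in retina, beside 28.4 and 16.5 FPKM for the first. Of Spc25, the second row was at 5.29 and 26.9 FPKM and the third at 0.930 and 7.72 FPKM, beside 44.5 and 83.5 FPKM for the highest row. How firmly the estimates divide reads among these rows was not tested.

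For 3 related copies of mitotic genes the levels were looked up. Ccnb1-ps was at 5.26e-05 FPKM in mNRPCs and 0.143 FPKM in retina, Gm4961, a pseudogene related to Kif2c, at 0.0744 and 0.368 FPKM (above Kif2c itself, 0.124 FPKM, in retina), and Kif4-ps was listed at 0 in both.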
